A study of Homo sapiens with 2 samples.

Results

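The immunoglobulin kappa and lambda segments are the variable (V), joining (J) and constant (C) gene segments from which the antibody light chains are built. They were read in 2 BCP-ALL cell lines as all genes of the count tables that GENCODE 44 types as V, J or C immunoglobulin genes and whose symbol places them in the kappa or lambda families on chromosomes 2 and 22. This gave 96 of the 57773 genes counted. There were 49 kappa segments, namely 43 V, 5 J and 1 C, and 47 lambda segments, namely 36 V, 7 J and 4 C. Another 4 segments of that annotation (IGKV2-40, IGKV1D-13, IGKV1D-12 and IGLV2-8) had no matching gene ID and were not analysed here.

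Total RNA was sequenced from untreated REH cells and untreated 697 cells, with 1 library per line. REH is an ETV6/RUNX1-positive BCP-ALL line in which the remaining wild type ETV6 allele is deleted, and 697 is a BCP-ALL line without that fusion. Both were grown in RPMI medium with fetal bovine serum. Each line derives from a single leukemia, so a difference between them cannot be assigned to the fusion, and with 1 library per line no spread between replicates exists and no test was made.

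The REH library held 45188375 reads assigned to genes and the 697 library 41097497. Levels are given as reads and as CPM, the standard depth-scaled unit of read counts. At this depth 3 reads, taken as the smallest countable level, corresponded to 0.0597 CPM in REH and 0.0812 CPM in 697. Ratios are REH over 697 on the log2 scale, with 0.5 reads added on both sides, and their 95% intervals cover counting error only. Only reads with a single place in the genome were counted, and a read that touched exons of 2 genes was counted for neither, which matters for segments that are near copies of each other. Multimapping reads made up 10.8% of the REH library and 15.4% of the 697 library.

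A light chain gene is assembled when the RAG recombinase joins 1 V segment to 1 J segment. The J segment is then spliced to a C segment. The kappa locus has a single C gene behind all its J segments, whereas in the lambda locus each C gene is preceded by its own J segment. B-cell precursors generally rearrange kappa before lambda. Before a light chain is made, they pair the heavy chain with a surrogate light chain built from VPREB1 and IGLL1.

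The lambda J and C segments are shown because the lines differed in which of them were read and because their likeness decides which reads can be counted. The last 38 coding bases of 4 J segments follow, from the plus strand of chromosome 22 and taken from the GENCODE 44 transcripts on GRCh38, with capitals at bases that differ from IGLJ3. IGLJ1 differed at 9 positions, IGLJ2 at 3 and IGLJ7 at 7.
IGLJ1: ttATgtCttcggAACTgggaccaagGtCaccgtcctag
IGLJ2: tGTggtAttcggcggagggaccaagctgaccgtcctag
IGLJ3: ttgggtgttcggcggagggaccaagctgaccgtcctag
IGLJ7: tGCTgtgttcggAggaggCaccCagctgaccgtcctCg

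The first 150 coding bases of the C segments that belong to these J segments follow, from the same source and strand, with capitals at bases that differ from IGLC3. IGLC1 (chr22:22895375-22895834) differed at 12 of these positions, IGLC2 (chr22:22900976-22901437) at 1 and IGLC7 (chr22:22922594-22923034) at 3. IGLC3 lies at chr22:22906342-22906803.
IGLC1: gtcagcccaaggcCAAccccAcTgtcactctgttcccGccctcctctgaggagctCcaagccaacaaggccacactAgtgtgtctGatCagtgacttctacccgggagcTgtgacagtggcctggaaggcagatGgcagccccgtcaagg
IGLC2: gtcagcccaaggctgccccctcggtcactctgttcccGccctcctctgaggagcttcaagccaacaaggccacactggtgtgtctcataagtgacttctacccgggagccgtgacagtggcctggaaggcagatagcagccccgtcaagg
IGLC3: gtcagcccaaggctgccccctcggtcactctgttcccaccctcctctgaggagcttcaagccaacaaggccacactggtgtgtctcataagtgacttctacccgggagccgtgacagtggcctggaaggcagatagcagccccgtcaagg
IGLC7: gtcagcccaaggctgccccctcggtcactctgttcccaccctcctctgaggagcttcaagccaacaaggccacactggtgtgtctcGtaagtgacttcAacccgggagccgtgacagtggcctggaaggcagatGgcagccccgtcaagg

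Over the 317 coding bases, IGLC2 and IGLC3 differed at 3 positions (99.1% identity), with an identical run of 173 bases. IGLC3 and IGLC7 differed at 12 positions (96.2%) and shared a longest run of 86 bases. A read that lies inside such a run in IGLC2 or IGLC3 has more than one place in the genome, so it drops out of the counts.

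The ends of 5 lambda V segments are shown, among them the leading V gene of each library (IGLV3-21 in REH and IGLV1-51 in 697). The other 3 are the matched V genes near IGLV3-21, or between it and the J genes, that had at least 10 reads. The bases given are the last 90 coding bases of the annotated transcripts on the plus strand. Capitals mark the codon of the conserved cysteine that follows a pair of tyrosine codons. The annotated transcript of IGLV2-23 ends closer to this codon than the other 4.
IGLV3-21: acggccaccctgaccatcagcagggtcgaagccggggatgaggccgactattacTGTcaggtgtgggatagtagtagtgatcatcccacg
IGLV3-10: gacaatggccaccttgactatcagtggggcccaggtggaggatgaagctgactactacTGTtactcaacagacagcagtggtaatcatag
IGLV3-9: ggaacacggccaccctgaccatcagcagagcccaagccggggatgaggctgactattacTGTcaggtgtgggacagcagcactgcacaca
IGLV2-23: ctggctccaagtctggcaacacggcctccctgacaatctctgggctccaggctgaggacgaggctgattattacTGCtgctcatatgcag
IGLV1-51: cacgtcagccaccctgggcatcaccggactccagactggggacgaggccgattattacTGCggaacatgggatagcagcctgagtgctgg

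Counted reads of the light chain segments lay almost wholly in REH, and there almost wholly at the lambda locus. The 96 segments summed to 5285 reads in REH (105 CPM) and 137 reads in 697 (3.71 CPM). These sums leave out the pseudogenes of both loci, which held 268 reads in REH and 324 in 697. They also leave out IGLL5, which shares exons with IGLJ1 and IGLC1 and had 1 read in REH and 1346 in 697. No reads fell in 63 of the 96 in either library. Reads were seen in 25 segments in REH, in 18 in 697 and in 33 in at least 1 of the libraries.

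Of the 96 segments, 14 had at least 10 reads in a library, the minimum for a gene to be compared. Among them 10 were higher in REH by a log2 ratio of at least 2, beside 12.5% of the 19145 genes compared. The other 4 were higher in 697 by the same margin, beside 8.15% of all genes compared. The median log2 ratio was 5.21 over these 14 segments and 0.05 over all genes compared. Most of the 14 passed the minimum only through the library in which they were high, so a large ratio was built into the choice and this count and median are descriptions.

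**Figure D1:**
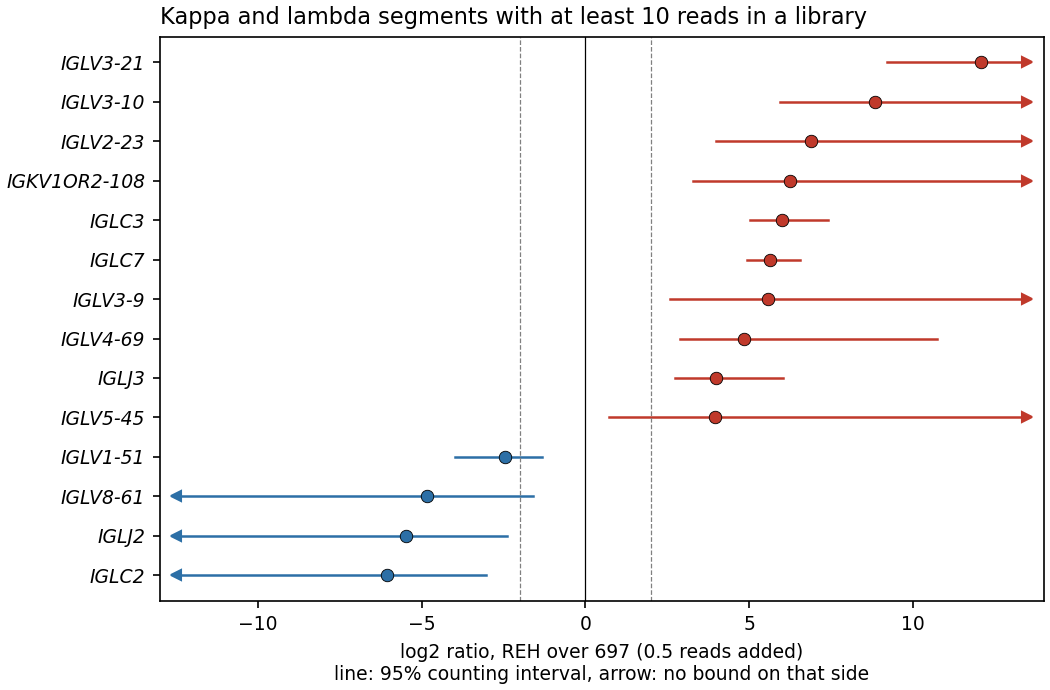
Log2 ratio of REH over 697 for the 14 light chain segments with at least 10 reads in a library. Points are ratios with 0.5 reads added, lines are 95% counting intervals, arrows mark a side without a bound because 1 library had 0 reads, and dashed lines mark the threshold of 2. The 10 red segments were higher in REH and the 4 blue ones, IGLV1-51, IGLV8-61, IGLJ2 and IGLC2, were higher in 697.

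Lambda segments summed to 5233 reads in REH and 126 in 697, that is 104 CPM against 3.41 CPM, a log2 ratio of 4.93 (4.68 to 5.20). With the pseudogenes added the lambda log2 ratio was 3.19. Kappa segments summed to 52 reads and 11 reads, or 1.03 and 0.298 CPM. Kappa thus made up 0.984% of the light chain segment reads in REH (exact binomial interval 0.736 to 1.29%) and 8.03% in 697 (4.08 to 13.9%). Nearly all REH kappa reads, 51 of 52, fell in an orphon, a V segment copied to a place outside the kappa locus.

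Lambda V genes encode most of the antigen-binding domain of the light chain. They held 3499 reads in REH (69.6 CPM) and 47 in 697 (1.27 CPM), a log2 ratio of 5.76 (5.36 to 6.22). Reads were seen in 17 of the 36 genes for REH but in 6 of them for 697. A single V gene had most of the counted reads in REH and the largest count in 697, and it was not the same gene.

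In REH this was IGLV3-21 (ENSG00000211662, chr22:22711689-22713203), with 2975 reads in REH and 0 in 697. That is 59.2 CPM, or 98.3 CPM per kb of exon, and at least 729-fold higher than 3 reads in 697. IGLV3-21 took 85.0% of the lambda V reads of REH (83.8 to 86.2%). This share is over matched gene IDs only. An ID without an entry in GENCODE 44, ENSG00000211671, had 802 reads in REH and 0 in 697. The number of this ID falls between the IDs of IGLV3-9 and IGLV4-3. IGLV2-8, which had no matching ID, lies between these genes on the locus. If the unmatched ID is IGLV2-8 or another lambda V gene, the share would be lower. Of the 50-base windows of IGLV3-21 99.8% occurred once in the genome, so few of its reads could be lost to near copies.

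Among the matched genes, the second V gene of REH was IGLV3-10 (ENSG00000211669), with 312 reads (6.21 CPM) against 0 in 697, at least 76.4-fold higher. IGLV2-23 (ENSG00000211660) had 81 reads (1.61 CPM) against 0, at least 19.8-fold higher. IGLV4-69 (ENSG00000211637) had 58 reads in REH and 1 in 697, a log2 ratio of 4.84 (2.88 to 10.74). These genes followed IGLV3-21 at a wide distance in reads.

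Weaker signals in REH came from IGLV3-9 (ENSG00000211670), with 32 reads against 0 and at least 7.84-fold higher. IGLV5-45 had 10 reads against 0, which gives a bound of only 2.45-fold. The remaining 11 lambda V genes with reads in REH had between 1 and 7 reads, at most 0.139 CPM.

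In 697 the leading V gene was IGLV1-51 (ENSG00000211644), with 30 reads (0.812 CPM) against 7 in REH (0.139 CPM), a log2 ratio of -2.47 (-3.98 to -1.33). It took 63.8% of the 47 lambda V reads of 697 (48.5 to 77.3%), or 44.8% with pseudogenes added. In GENCODE 44 another gene covers 78.9% of its exons, so part of its reads may have been left uncounted as ambiguous. In the 697 library 10 of its reads lay in the column of its own strand and 20 in the opposite one. The 2 columns were near equal over all genes, so this split does not show the transcribed strand. Whether any counted read came from the other gene was not tested. IGLV8-61 (ENSG00000211638) had 10 reads in 697 and 0 in REH, at least 4.54-fold higher in 697. IGLV5-52 had 4 reads in 697 and 2 in REH, and IGLV4-69, IGLV1-50 and IGLV7-46 had 1 read each in 697.

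In REH most counted lambda V reads lay in the stretch nearer the J genes, where 697 had none. Both libraries had reads farther upstream, in 10 V genes for REH and 6 for 697. Counted from the start of IGLJ1, IGLV2-23 lies at -196 kb, IGLV3-21 at -182 kb, IGLV3-10 at -81.9 kb and IGLV3-9 at -74.7 kb. The 13 matched V genes from IGLV2-23 to the J genes summed to 3405 reads in REH and 0 in 697. This stretch was cut at IGLV2-23, itself a gene with reads in REH only. The 23 V genes farther upstream summed to 94 reads in REH and 47 in 697, a log2 ratio of 0.55 (0.04 to 1.09). Among the matched V genes, the nearest with a read in 697 was IGLV7-46, at -524 kb, with 1 read. The V pseudogene IGLV1-41, nearer to the J genes, had 4 reads in 697 and 2 in REH.

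Between IGLV3-21 and the J genes lie 10 further matched V genes. They summed to 348 reads in REH, nearly all of them in IGLV3-10 and IGLV3-9. IGLV2-8 also lies there but had no matching ID. The 802 REH reads of the unmatched ENSG00000211671 are not in this sum. The V genes between IGLV3-21 and IGLV3-10 with reads were IGLV3-19 and IGLV2-11, with 2 reads each.

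**Figure D2:**
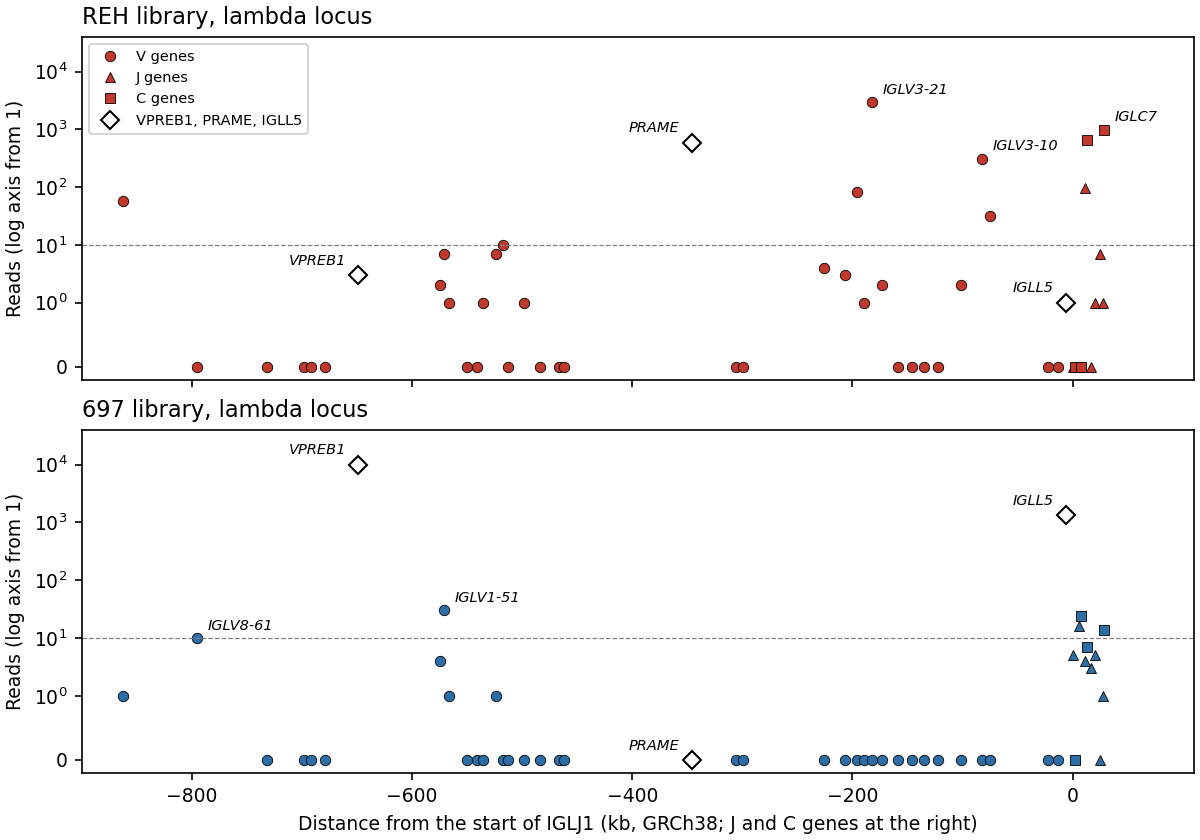
Reads per gene along the lambda locus in REH (top) and 697 (bottom), against the distance from the start of IGLJ1 in kb on GRCh38. Circles, triangles and squares are V, J and C genes, open diamonds are the other genes VPREB1, PRAME and IGLL5, the y axis is logarithmic from 1 read and linear below, and the dashed line marks 10 reads. In REH the highest segment is IGLV3-21 at 2975 reads, while in 697 no segment exceeds 30 reads and VPREB1 and IGLL5 stand above all segments.

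The J segments supply the last residues of the variable domain. The 7 lambda J genes summed to 105 reads in REH and 34 in 697, or 2.09 and 0.920 CPM, a log2 ratio of 1.17 (0.61 to 1.79). The reads fell in different J genes. IGLJ3 (ENSG00000211678) had 96 reads in REH (1.91 CPM) and 4 in 697 (0.108 CPM), a log2 ratio of 3.98 (2.74 to 6.05). IGLJ2 (ENSG00000211676) had 0 reads in REH and 16 in 697 (0.433 CPM), at least 7.26-fold higher in 697.

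The other 5 J genes stayed under 10 reads. IGLJ1 had 0 reads in REH and 5 in 697, IGLJ4 0 and 3, IGLJ5 1 and 5, IGLJ6 7 and 0, and IGLJ7 1 and 1. These genes are short in the annotation, from 33 bases for IGLJ4 to 127 for IGLJ1, against 175 for IGLJ2 and 176 for IGLJ3, so their reads are not comparable between genes without regard to length. Of the REH reads of IGLJ3, 91 of 96 (94.8%, 88.3 to 98.3%) lay in the count column of the gene's own strand. Over all genes that column took 50.1% of the reads of both columns, so such shares do not show which strand was transcribed. In REH the share was 56.6% for IGLV3-21, 51.5% for IGLC7, 49.8% for IGLC3 and 32.1% (22.2 to 43.4%) for IGLV2-23, and for IGLJ2 in 697 it was 25% (7.27 to 52.4%). In the opposite-strand column alone the log2 ratio of IGLJ3 was 0.72, below the threshold.

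The C segments encode the constant domain of the lambda chain. They summed to 1629 reads in REH (32.4 CPM) and 45 in 697 (1.22 CPM), a log2 ratio of 4.72 (4.31 to 5.19). In REH the counted reads were split between IGLC7 and IGLC3, and in 697 IGLC2 held the largest share of the 45 reads. The C pseudogene IGLC5, outside these sums, had 265 reads in 697.

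IGLC7 (ENSG00000211685) had 980 reads in REH and 14 in 697, a log2 ratio of 5.64 (4.93 to 6.56). IGLC3 (ENSG00000211679) had 649 reads in REH and 7 in 697, a log2 ratio of 5.99 (5.04 to 7.41). Per kb of exon the levels in REH were 44.2 CPM for IGLC7 and 27.9 CPM for IGLC3. IGLC7 thus held 60.2% of the counted lambda C reads of REH (57.7 to 62.5%) and IGLC3 39.8% (37.5 to 42.3%).

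Uniqueness bears on this order. Of the 50-base windows of IGLC3, 32.9% occurred once in the genome, against 68.9% for IGLC7, and at 75 bases 54.4% against 85.3%. Fewer places in IGLC3 can thus hold a countable read, and the order of the 2 genes is one of counted reads only. IGLC7 was the higher of the 2 by counts, while the J segment with most reads in REH was IGLJ3. IGLJ7, the J segment before IGLC7, is annotated with 46 bases. A read across a J-C join can touch exons of 2 genes and go uncounted, so the J counts do not show which J segment was joined.

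IGLC2 (ENSG00000211677) had 0 reads in REH and 24 in 697 (0.650 CPM), at least 10.9-fold higher in 697. Its 50-base windows were as rarely unique as those of IGLC3, at 33.9%. Among the 1629 C reads of REH, the count of 0 for IGLC2 allows a share of up to 0.226% (exact binomial bound). In 697 IGLC2 held 53.3% of 45 C reads (37.9 to 68.3%), IGLC7 31.1% and IGLC3 15.6%.

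IGLC1 (ENSG00000211675) had 0 reads in both libraries. All of its exon lies inside the annotated IGLL5 gene in GENCODE 44, as does 96.1% of that of IGLJ1, and with such an overlap a read there would touch 2 genes and be left uncounted. The gene set used for counting was not given and IGLJ1 still had 5 reads in 697, so whether this set the 0 reads of IGLC1 was not tested, and the 0 cannot be read as a low level.

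**Figure D3:**
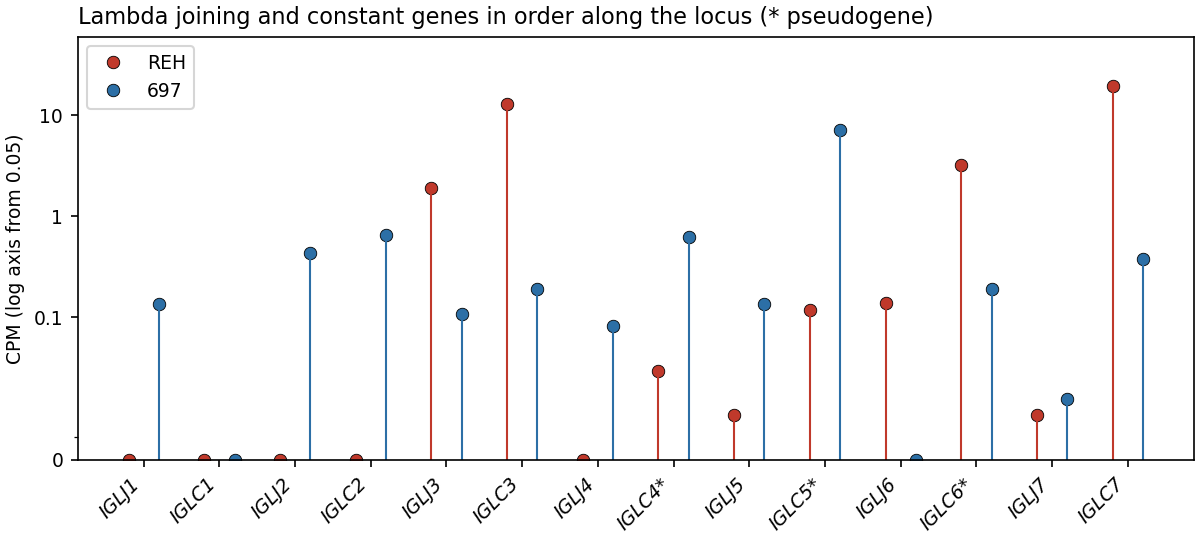
CPM of the lambda J and C genes in REH (red) and 697 (blue), in their order along the locus, with each J gene before its C gene. The y axis is logarithmic from 0.05 CPM and linear below, asterisks mark pseudogenes, and no error is drawn because there is 1 library per line. IGLC7, IGLC3, the pseudogene IGLC6 and IGLJ3 are the highest in REH, and the pseudogene IGLC5 at 7.17 CPM is the highest in 697.

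V, J and C reads made up different shares of the lambda reads. In REH 66.9% were V, 2.01% J and 31.1% C reads. In 697 37.3% were V, 27.0% J and 35.7% C reads. The J share of 697 (19.5 to 35.6%) lay above that of REH (1.64 to 2.42%), with intervals that cover counting error only. A read across a V-J or J-C join can touch exons of 2 genes and would then be left uncounted. These are thus shares of counted reads in matched genes, and they do not measure how often a J segment is used.

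The kappa locus was close to empty in the counted reads of both libraries. IGKC (ENSG00000211592, chr2:88857161-88857683, minus strand), the only kappa C gene, had 0 reads in both, although all of its 50-base windows occurred once in the genome and no other gene overlapped its exon in GENCODE 44. At 0 reads its level would be under the 3-read floor in each library, but the gene set used for counting was not given, and whether another gene overlapped IGKC there was not tested. The 5 kappa J genes also had 0 reads in both, and the longest of them has 39 bases, so few reads could fall in them.

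The 43 kappa V genes comprise 21 at the main locus, 20 in the distal inverted copy of the locus and 2 orphons. The main locus had 0 reads in REH and 2 in 697, namely 1 each in IGKV1-8 and IGKV2-30. The distal copy had 1 read in REH, in IGKV2D-30, and 9 in 697, all in IGKV2D-40. IGKV2D-40 (ENSG00000251039) has no 50-base or 75-base window that occurs once in GRCh38, so its 9 reads are uncertain in origin.

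The distal copy nearly repeats the main locus, which leaves few places for a uniquely mapped read. Leaving out the orphons, at least 50% of the 50-base windows occurred once in 14 kappa V genes, and those genes summed to 0 reads in REH and 1 in 697. Another 9 non-orphon genes had no window that occurred once.

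The single kappa V gene with at least 10 reads was the orphon IGKV1OR2-108 (ENSG00000231292, chr2:113406396-113406872), with 51 reads in REH (1.01 CPM) and 0 in 697, at least 12.5-fold higher in REH. It lies on the other arm of chromosome 2 from the kappa locus. Without the 2 orphons, kappa summed to 1 read in REH and 11 in 697, and the log2 ratio of the kappa sum changed from 1.75 (0.84 to 2.88) to -3.38 (-9.33 to -1.12). The direction of the kappa difference thus rested on 1 orphon gene. The reversed ratio rested in turn mostly on IGKV2D-40, which held 9 of the 11 reads of 697 and whose reads are uncertain in origin.

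**Figure D4:**
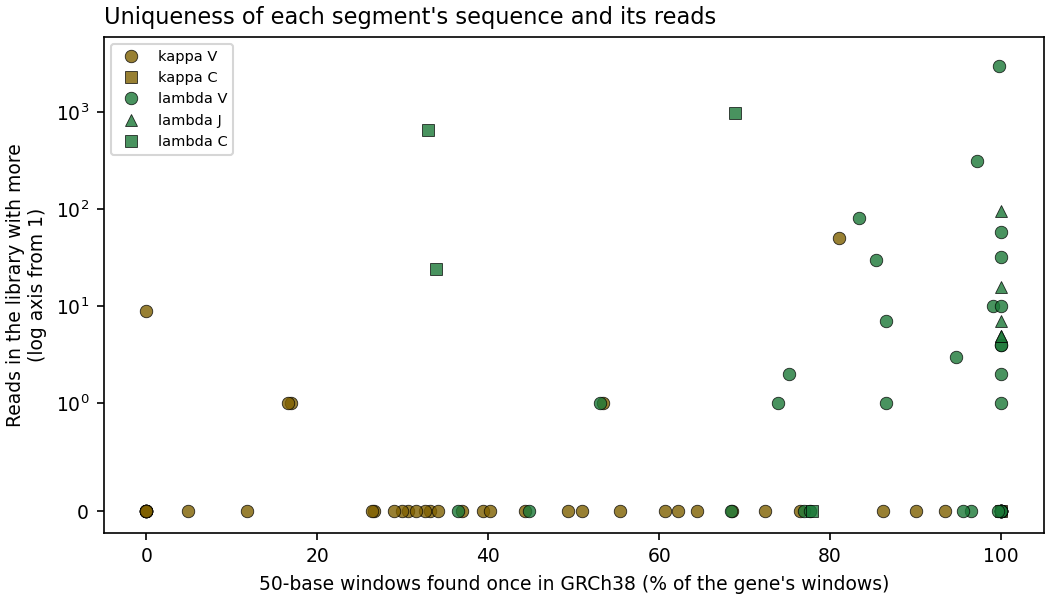
Reads in the library with more reads against the share of a segment's 50-base windows that occur once in GRCh38, for segments of at least 50 bases. Circles, triangles and squares are V, J and C genes in brown for kappa and green for lambda, and the y axis is logarithmic from 1 read and linear below. Many kappa V genes have few unique windows, but IGKC, at 100%, lies at 0 reads, while IGLC3 holds 649 reads at 32.9%.

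Genes that are not immunoglobulin segments but lie in or beside these loci were read from a list of 12, of which 11 were in the tables and 8 had at least 10 reads. VPREB1, a part of the surrogate light chain, lies inside the lambda V cluster between IGLV10-54 and IGLV5-52, and had 3 reads in REH and 10039 in 697, a log2 ratio of -11.93. IGLL5, an IGLL1-like gene that shares exons with IGLJ1 and IGLC1, had 1 read in REH and 1346 in 697, a log2 ratio of -10.25. PRAME, a tumour antigen gene between the V genes, was at 584 reads in REH but at 0 in 697, at least 143-fold higher. Among the 8 genes, the count was 1 higher in REH and 2 higher in 697.

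Outside the V cluster the neighbours lay closer to each other. TOP3B, a topoisomerase gene, had a log2 ratio of 0.11 and PPM1F, a phosphatase gene, 0.39. BCR, on the far side of the C genes, had 14334 reads in REH and 4031 in 697, a log2 ratio of 1.39. Beside the kappa locus, the metabolic gene RPIA had a log2 ratio of -1.14 and the kinase gene EIF2AK3 0.80.

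The pre-B cell receptor and its surrogate light chain were read from 7 genes, all with at least 10 reads and with a median log2 ratio of -0.79. CD79B, a signalling subunit of the receptor, was higher in REH with 24198 against 4443 reads, a log2 ratio just at the threshold of 2. VPREB1 and IGLL5, given above, were higher in 697. IGLL1 (lambda5), the other part of the surrogate light chain, had 14635 and 18608 reads, and IGHM, the heavy chain constant gene, 29748 and 51738. Of the surrogate light chain, IGLL1 was thus read at a high level in both lines. VPREB1 was so in 697, and at the smallest countable level of 3 reads in REH.

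The 10 genes of V(D)J recombination were all compared, none passed the threshold in either direction, and their median log2 ratio was -0.26. RAG1, a subunit of the recombinase that cuts the segments, had 77158 reads in REH and 21317 in 697, a log2 ratio of 1.41. DNTT, which adds bases at the joins, had 57392 and 163775 reads, a log2 ratio of -1.96.

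Of 20 transcription and chromatin factors known to act on the light chain loci or on pre-B cells, 1 was higher in REH and 3 in 697, with a median of -0.03. SPI1 (PU.1) had 2810 reads in REH and 19 in 697, a log2 ratio of 6.73. IKZF3 (Aiolos) had 13 and 314 reads, a ratio of -4.99 on the log2 scale. NFKB1 had a log2 ratio of -2.68 and IRF8 of -2.02, close to the threshold. With unscaled totals 2 of the factors were higher in each line. IRF4, which binds light chain enhancers together with PU.1, had 4388 and 4212 reads, a log2 ratio of -0.39.

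The cell type was checked against marker genes. All 10 B-lineage markers were detected in both libraries, summing to 3290 CPM in REH and 3543 CPM in 697, with VPREB1 near 0 in REH. The 5 mature B cell markers summed to 27.0 and 2.14 CPM, with CR2 at 0 in both. The 5 plasma cell markers summed to 276 and 628 CPM, and their defining genes went in opposite directions. JCHAIN had 4 reads in REH and 8797 in 697, whereas SDC1 (CD138) had 2677 reads in REH and 3 in 697. PRDM1 had 48 reads in REH and 200 in 697, and XBP1 had 11122 and 14196. The 5 T cell markers in the tables summed to 1.03 and 0.0271 CPM, with CD3D and CD2 at 0 in both. Most of the REH sum was CD3E, with 45 reads in REH and 0 in 697. The 6 myeloid markers summed to 263 and 8.66 CPM, and nearly all of the REH sum was MPO, with 12643 reads in REH and 12 in 697. ITGAM had 403 reads in REH and 0 in 697, LYZ had 1 and 2, and CSF1R and CST3 had log2 ratios of -1.46 and -1.30. The lambda sum was higher in the same library as the mature B and myeloid sums, and their part in the result was not tested.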

How the data were processed

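Per the labels the authors sequenced RNA of REH and 697 cells as ribodepleted, stranded libraries and used hg19, whereas the study's methods describe poly(A) purified TruSeq libraries, an Illumina NextSeq and STAR alignment to hg38. The gene annotation of the counting is not given in the sources used here. The deposited values are raw read counts per gene by STAR, with 3 count columns (either strand, each strand) and 4 rows of reads without a gene, left out of all totals (ambiguous reads were 4.58% in REH and 4.41% in 697). The 2 stranded columns were near equal (50.1% and 50.2%), so the column of either strand was used. The counts thus behaved as unstranded, and the stranded columns do not show which strand was transcribed.

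Groups came from the cell line label. Gene types, symbols and GRCh38 positions came from GENCODE 44, matched by gene ID for 51996 of 57773 genes (5777 unmatched), and positions are not the authors' coordinates. Totals were scaled with TMM in edgeR 4.0.16 under R 4.3.3 (factors 1.11 and 0.899). Comparisons took genes that reached 10 reads in REH or 697, with a threshold of 2 on the log2 ratio in either direction. Intervals are 95% Clopper-Pearson, computed in Python 3.11.15 with scipy 1.17.1, and cover counting error only, since reads of 1 molecule are not independent. Bounds against 0 reads use a floor of 3 reads. Transcript windows of 50 and 75 bases were searched on both strands in GRCh38. The script was tested on simulated counts.

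The members and lists were chosen with earlier results of these data known. Named genes were all C genes, the 5 V genes with most reads per library and locus, J genes with at least 10 reads, the lambda genes named by the study, and fixed pathway and marker lists. Other genes with few reads were named after their values were seen. Alternatives were DESeq2 1.42.0 size factors, unscaled totals, each stranded column, other read minimums, additions and thresholds, and other member sets. With 1 library per line no p-value is given.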

Additional observations from a re-analysis of the deposited data

Results flagged for a closer look

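Several values lay outside the 96 segments or outside the count column used, and stood above the level that 3 reads set. Of the kappa and lambda pseudogenes, 91 were in the tables, with 268 reads in REH and 324 in 697. IGLC5, a C pseudogene between IGLC3 and IGLC7, had 265 reads in 697 and 6 in REH, a log2 ratio of -5.80 (-7.37 to -4.77), more than all 45 reads of the C genes in 697. IGLC6, the next C pseudogene, had 162 reads in REH and 7 in 697, a log2 ratio of 3.99 (3.01 to 5.43). The orphon IGLVIVOR22-1, a V pseudogene outside the lambda locus, had 55 reads in REH and 8 in 697.

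A gene ID without an entry in GENCODE 44, ENSG00000211671, had 802 reads in REH (16.0 CPM) and 0 in 697. Its number falls between the IDs of IGLV3-9 and IGLV4-3. IGLV2-8, which had no matching ID, lies between these genes on the locus. Whether the unmatched ID is that of IGLV2-8 was not tested, and no name was assigned to it. In the stranded count columns, which the comparisons did not use, 91 REH reads of IGLJ3 lay in the column of the gene's own strand and 5 in the other. These columns do not show which strand was transcribed. No cause of any of these values was tested.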

How the results depend on the processing

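No paired analysis was possible because the series holds a lone library of REH and another of 697, and for the same reason no library could be left out. The count of 10 segments higher in REH stayed within 1.5 times under every alternative run. The 4 segments higher in 697 became 2 in either stranded column, 10 with a minimum of 1 read and 0 with a minimum of 50 reads. The lambda log2 ratio of 4.93 was 5.23 with unscaled totals and 3.19 with pseudogenes added. The kappa log2 ratio of 1.75 was 4.94 in the opposite-strand column, 3.92 without the distal copies and -3.38 without orphons, where it reversed. Leaving out orphons was chosen after seeing the data, as were the alternatives for the pathway genes. The kappa share of REH was 0.0191% without orphons. That of 697 was 15.7% in the gene-strand column, 0% in the opposite-strand column, where no kappa read remained, and 1.56% without the distal copies. The leading lambda V gene took 82.8% in REH and 44.8% in 697 with pseudogenes added. The leading kappa V gene of REH took 100% in the gene-strand column, without the distal copies or without orphons (then IGKV2D-30 with 1 read), and 89.5% with pseudogenes, and that of 697 took 45% with pseudogenes. Of 102 single-gene ratios over 17 named genes and 6 settings, all kept their direction and 7 left their counting interval. The threshold was no longer reached by IGLJ3 in the opposite-strand column (0.72) and, with 5 reads added, by IGLV5-45 (1.14) and IGLV1-51 (-1.99). CD79B fell under the threshold with DESeq2 size factors, in the gene-strand column and with 5 reads added. The light chain regulators, 1 higher in REH and 3 in 697, became 2 and 2 with unscaled totals and 1 and 2 in the gene-strand column. With a log2 threshold of 1 they became 4 and 5. At that threshold the V(D)J recombination genes went from 0 and 0 to 1 and 1, and the pre-B cell receptor genes from 1 and 2 to 2 and 3. The causes were not tested. The depth limits every gene under 3 reads, and without replicates no ratio shows more than a difference between these 2 libraries.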
